A study of Homo sapiens with 12 samples.

Results

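The genes described here are 99 single-symbol genes of chromosome 13 that lie, in order of gene start, from UFM1 through PCDH20, out of 18417 genes measured. They were chosen by position, on the GRCh38 annotation, after a run of neighbouring genes with lower values in the TLR4 lines had been seen in these data, so their differences between groups are a description with no test of their own. EPSTI1 lies between the same ends and was left out by the rule. Of the 99 genes, 59 had a mean log2 value of at least 7.0 over the 12 arrays and are called brighter genes below, and the other 40 are called dim. The annotation lists 392 genes between the ends, 106 of them protein-coding. Of the 99 genes measured here, 86 code for protein and 13 do not.

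The cells were Caco-2, a human colon carcinoma line used as a model of intestinal epithelium, with 4 groups of 3 RNA samples, each on its own Affymetrix whole-transcript array. The TLR4-WT group carried HA-tagged wild-type TLR4, the receptor for bacterial lipopolysaccharide, the TLR4-D299G and TLR4-T399I groups carried the same tagged construct with 1 mutation each (D299G or T399I), and the controls were naive cells that had received no plasmid. Every TLR4 line was a stable transfectant selected as clones in blasticidin (1 µg/ml), no line with an empty plasmid was in the series, and all cells were grown for 8 days before RNA was taken. A difference between groups is therefore a difference between selected lines, and the effect of TLR4 and that of cloning and selection cannot be told apart.

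Nothing in the labels says that a group's 3 samples came from separate cultures, so p-values measure only the spread between them, which may be technical. TLR4 had a mean log2 value of 4.83 in untransfected cells and 8.34 to 8.81 in the 3 lines, with no overlap. The epithelial markers EPCAM, CDH1, KRT8, KRT18, KRT19, VIL1 and CDX2 had means over the 12 arrays from 9.74 to 13.47 and KRT20 had 6.43. The leukocyte marker PTPRC stood at 3.67, in each group under the arrays' lower quartile, CD3E at 5.28, and COL1A1, COL1A2, COL3A1, PDGFRB, PECAM1 and CDH5, of fibroblasts and endothelium, between 6.11 and 8.2. Lower quartiles ran from 5.2 to 5.29, and the values carry no detection calls.

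This part of the long arm of chromosome 13 is known for RB1, the retinoblastoma tumour suppressor gene, and for the region around DLEU2, DLEU1 and the miR-15a and miR-16-1 hairpins that is often deleted in chronic lymphocytic leukaemia. Its other genes have no common function: among them are subunits of the COG tethering complex of the Golgi, of Mediator, of Integrator and of RNase H2, mitochondrial carriers, and several protocadherins.

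The brighter genes of the stretch were lower in all 3 TLR4 lines than in untransfected cells, and lowest in TLR4-D299G. Their median log2 difference from untransfected cells was -0.30 in TLR4-WT, -0.68 in TLR4-D299G and -0.34 in TLR4-T399I, or 1.23-fold, 1.61-fold and 1.26-fold lower. The same medians over all 11006 genes with a mean of at least 7.0 were 0.01, 0.00 and 0.02. The middle of the spread, from the lower to the upper quartile of the 59 genes, was -0.90 to -0.44 in TLR4-D299G. Over all 99 genes, dim ones included, the medians were -0.16, -0.44 and -0.18, against 0.06, 0.07 and 0.05 over all genes measured. The 40 dim genes had medians of 0.07, 0.09 and 0.07, close to the 0.11, 0.13 and 0.09 of all 7411 genes with a mean below 7.0.

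Between the lines, the brighter genes had a median log2 difference of -0.38 for TLR4-D299G minus TLR4-WT, -0.35 for TLR4-D299G minus TLR4-T399I and -0.06 for TLR4-T399I minus TLR4-WT. TLR4-WT and TLR4-T399I thus lay close together over the stretch, and TLR4-D299G lay below both. The lowest group mean was that of TLR4-D299G in 48 of the 59 genes, and the highest was that of untransfected cells in 43. These counts were not made over all genes that bright.

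Differences of single genes were called with limma at a Benjamini-Hochberg adjusted p under 0.05 over all probe sets. Of the 99 genes, 40 were called lower and 7 higher in TLR4-WT than in untransfected cells, where 19.0% of all genes measured were called lower and 19.3% higher. In TLR4-D299G 56 were called lower and 8 higher, beside 20.8% of all genes called lower and 22.5% higher. In TLR4-T399I 44 were called lower and 7 higher, beside 18.5% and 18.1%. Among the 59 brighter genes the counts called lower were 35, 50 and 37, beside 27.4%, 30.6% and 26.5% of all genes that bright. These contrasts led to the choice of the stretch, so the counts describe it and support nothing. The 3 comparisons also share the same untransfected arrays.

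Against TLR4-WT, 39 of the 99 genes were called lower and 5 higher in TLR4-D299G, where 11.7% of all genes were called lower and 11.3% higher. In TLR4-T399I against TLR4-WT 3 were called lower and 7 higher, beside 6.02% of all genes called lower and 8.37% higher. In TLR4-D299G against TLR4-T399I 40 were called lower and 3 higher, beside 10.7% and 8.43%. The count of 3 for TLR4-T399I against TLR4-WT was 1 without TLR4-WT replicate 1, without TLR4-WT replicate 2 or without TLR4-T399I replicate 3, so single arrays decided it. Among the 59 brighter genes the 3 comparisons had 36, 3 and 37 called lower, beside 18.2%, 9.16% and 16.1% of all genes that bright. For the mean of the 3 lines against untransfected cells, 52 of the 99 genes were called lower and 6 higher, beside 22.1% of all genes called lower.

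The shift was seen in every array. Each array's median difference from the mean of the untransfected arrays, over the 59 brighter genes, was -0.03, 0.06 and -0.04 in the untransfected samples. It was -0.28, -0.24 and -0.33 in TLR4-WT and -0.41, -0.29 and -0.35 in TLR4-T399I, so these 2 lines overlapped. In TLR4-D299G it was -0.67, -0.65 and -0.70, below all 9 other arrays. Over the 10938 genes of that brightness placed outside the stretch, the same median stayed between -0.04 and 0.03 in all 12 arrays.

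In TLR4-D299G the lower values did not stop at UFM1 or PCDH20. The arrays measured RNA, and DNA copy number of the lines was not analysed here. In TLR4-D299G the median log2 difference from untransfected cells was -0.69 over the 55 brighter genes before UFM1 and -0.59 over the 70 after PCDH20, next to -0.68 in the stretch. In TLR4-WT it was -0.07 before UFM1, -0.30 in the stretch and -0.23 after PCDH20, and in TLR4-T399I -0.18, -0.34 and -0.34. The 12 brighter genes nearest to UFM1, from USPL1 to CSNK1A1L, had medians of -0.08 in TLR4-WT, -0.81 in TLR4-D299G and -0.40 in TLR4-T399I. The 12 nearest after PCDH20, from BORA to EDNRB, had -0.26, -0.52 and -0.06. Differences between the stretch and its flanks were not tested. In TLR4-D299G both flanks had medians near that of the stretch. Array medians in TLR4-WT were -0.10 to -0.09 before UFM1 and -0.33 to -0.24 in the stretch, without overlap. Those in TLR4-T399I were -0.20 to -0.16 and -0.41 to -0.29. Over the whole chromosome the median of 184 brighter genes was -0.64 in TLR4-D299G, the lowest of 23 chromosomes, -0.22 in TLR4-WT, also the lowest, and -0.30 in TLR4-T399I, the second lowest.

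Runs of neighbouring genes with lower values also lay on other chromosomes. A stretch of chromosome 15 from THBS1 to FAH (231 brighter genes) had array medians of -0.52 to -0.51 in TLR4-D299G, -0.08 to -0.04 in TLR4-WT and -0.10 to 0.00 in TLR4-T399I. A stretch of chromosome 1 from SPATA45 to DNAH14 (32 brighter genes) had -0.68 to -0.52 in TLR4-WT, -0.15 to -0.08 in TLR4-D299G and -0.32 to -0.18 in TLR4-T399I. The chromosome 1 stretch was thus also below the untransfected arrays in all 3 lines, and the chromosome 15 stretch was also lowest in TLR4-D299G.

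Within the stretch the shift was uneven. Cut into 5 blocks of neighbouring brighter genes, TLR4-D299G had median differences from untransfected cells of -0.78 from UFM1 to MTRF1, -0.74 from NAA16 to SLC25A30, -0.57 from COG3 to CDADC1, -0.41 from CAB39L to RNASEH2B and -0.64 from INTS6 to TDRD3. The same blocks ran from -0.39 to -0.21 in TLR4-WT and from -0.44 to -0.24 in TLR4-T399I. The fourth block, around the DLEU genes, held both the largest single difference of the stretch (MIR15A) and several genes near 0.

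At the first end, UFM1 had log2 values of 10.98, 11.07 and 11.13 in untransfected cells, 10.45, 10.37 and 10.48 in TLR4-WT, 10.05, 10.08 and 10.09 in TLR4-D299G, and 10.3, 10.35 and 10.36 in TLR4-T399I. UFM1, a small protein joined to others in the manner of ubiquitin, was thus highest in all 3 untransfected arrays and lowest in all 3 TLR4-D299G arrays, 1.98-fold below untransfected cells. Its dimmer second probe set was 0.33 lower in TLR4-D299G and 0.03 and 0.19 lower in TLR4-WT and TLR4-T399I, smaller differences than the 0.99, 0.63 and 0.72 of the first. The next gene, FREM2, a basement membrane protein, had means of 7.64 in untransfected cells, 6.55 in TLR4-WT, 6.26 in TLR4-D299G and 6.93 in TLR4-T399I. Just before UFM1, POSTN (4.08 to 4.23 over the groups) and TRPC4 (4.71 to 5.06) were near background. At the other end, TDRD3, which binds methylated arginines, had 7.89, 7.62, 7.28 and 7.63 in the same order of groups, and PCDH20 lay between 4.88 and 5.09. Just after it, LOC102723968 lay between 6.69 and 6.79 and PCDH9 between 3.92 and 4.29, with no call.

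Around the mean of 7.0 that parts brighter from dim genes, MIR15A (7.0) and WDFY2 (7.14) were just inside and MRPS31P5 (6.98) and FREM2 (6.84) just outside. MIR15A passed only through the groups where it was high. Its means were 8.23 in untransfected cells and 7.08 in TLR4-WT, but 6.02 in TLR4-D299G and 6.68 in TLR4-T399I. FREM2 and MRPS31P5 were also called lower in TLR4-D299G, by 1.38 and 0.51.

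RB1, whose product holds back E2F factors and entry into S phase, had log2 values of 9.88, 10.01 and 9.57 in the untransfected arrays. It had 9.01, 9.0 and 8.86 in TLR4-WT, 8.56, 8.5 and 8.43 in TLR4-D299G and 8.96, 9.15 and 9.08 in TLR4-T399I. The untransfected arrays were all above the lines and the TLR4-D299G arrays all below the rest, while TLR4-WT and TLR4-T399I overlapped. RB1 was 1.82-fold, 2.5-fold and 1.69-fold below untransfected cells in TLR4-WT, TLR4-D299G and TLR4-T399I. In a bulk sample, fewer cells with a transcript and less transcript per cell cannot be told apart.

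MIR15A and DLEU2 had the widest spread of group means among the brighter genes, where MIR15A counts only through its high values in untransfected cells and TLR4-WT. DLEU2 is a long non-coding RNA whose primary transcript contains the hairpins of miR-15a and miR-16-1, small RNAs that are known to repress BCL2 and cyclins. The mature arms (RefSeq, GRCh38.p14, chromosome 13, minus strand) are shown because both 5p arms carry the same seed, bases 2 to 8, given in capitals:
hsa-miR-15a-5p: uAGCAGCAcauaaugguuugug
hsa-miR-16-5p: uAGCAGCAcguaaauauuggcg
hsa-miR-15a-3p: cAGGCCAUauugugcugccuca
hsa-miR-16-1-3p: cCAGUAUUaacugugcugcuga

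They lie at chr13:50049167-50049188, chr13:50049027-50049048, chr13:50049130-50049151 and chr13:50048985-50049006. The 5p arms share the seed AGCAGCA, and the 3p arms share none. The MIR15A probe set had log2 values of 8.07, 8.34 and 8.29 in untransfected cells, 7.11, 7.2 and 6.94 in TLR4-WT, 5.84, 6.01 and 6.2 in TLR4-D299G, and 6.64, 6.68 and 6.71 in TLR4-T399I. No 2 groups overlapped, and the order ran from untransfected cells through TLR4-WT and TLR4-T399I to TLR4-D299G, 4.65-fold below untransfected cells. MIR16-1, on the neighbouring hairpin, was below the lower quartile in every group, with means of 4.71, 4.71, 4.86 and 4.98. It was called higher in TLR4-T399I than in untransfected cells, by 0.26, at that low level. The target was made from total RNA for whole transcripts, so the MIR15A value may be host transcript and is not a measure of mature miR-15a.

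DLEU2 had log2 values of 9.77, 9.94 and 10.08 in untransfected cells, 8.36, 8.79 and 8.39 in TLR4-WT, 7.99, 8.47 and 8.27 in TLR4-D299G, and 8.92, 9.21 and 9.19 in TLR4-T399I. TLR4-WT and TLR4-D299G overlapped, 2.67-fold and 3.22-fold below untransfected cells, and TLR4-T399I lay between, 1.77-fold below. The order of the lines therefore differed from that of MIR15A, where TLR4-T399I was below TLR4-WT. DLEU1, a non-coding neighbour on the opposite strand, had means of 9.05, 8.88, 8.69 and 9.36 in untransfected cells, TLR4-WT, TLR4-D299G and TLR4-T399I, and was named after its values were seen, as the only gene of the stretch called higher in TLR4-T399I than in each other group, beside 1.53% of all genes and 2.04% of the brighter ones. DLEU7, of the same region, had 7.99, 8.14, 8.12 and 7.89, with no call in any comparison.

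Among 12 brighter genes of the cell cycle, growth and tumour suppression, RB1 and DLEU2 included, 6, 9 and 6 were called lower in TLR4-WT, TLR4-D299G and TLR4-T399I than in untransfected cells, beside 27.4%, 30.6% and 26.5% of all genes that bright. Of the 59 brighter genes of the stretch 59.3%, 84.7% and 62.7% were called lower. Counts by function, here and below, therefore restate the shift of the stretch and are no result about a function. NEK3, a NIMA-family kinase, had 8.21, 8.35 and 8.16 in untransfected cells, 8.43, 8.33 and 8.37 in TLR4-WT, 7.56, 7.63 and 7.61 in TLR4-D299G, and 8.44, 8.90 and 8.68 in TLR4-T399I. NEK3 was low in TLR4-D299G alone, 2.1-fold below TLR4-T399I. CKAP2, a spindle protein, and DIAPH3, a formin needed in cytokinesis, were 0.79 and 0.60 lower in TLR4-D299G than in untransfected cells. SUGT1, a kinetochore assembly factor, was 0.46 lower there and 0.04 above untransfected cells in TLR4-T399I. CAB39L, a partner of the kinase LKB1, was named after its values were seen, and its means were 9.08, 8.86, 8.94 and 8.36. It was the only gene of the stretch called lower in TLR4-T399I than in each other group. That pattern held in 1.55% of all genes and 2.45% of those with a mean of at least 7.0.

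RGCC, a regulator of the cell cycle, went the other way. It had 7.78, 7.90 and 8.11 in untransfected cells, 8.31, 8.40 and 8.37 in TLR4-WT, 8.18, 8.24 and 8.25 in TLR4-D299G, and 8.17, 8.22 and 8.38 in TLR4-T399I. All 9 arrays of the lines were above all untransfected ones, by 1.35-fold, 1.23-fold and 1.25-fold on average.

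Genes of transcription and chromatin were called lower in TLR4-D299G in 11 of 13 brighter cases, beside 30.6% of all genes that bright, and in 5 and 7 in TLR4-WT and TLR4-T399I, beside 27.4% and 26.5%. The 5 of 13 in TLR4-WT are not far from that background. The shares over the brighter genes of the stretch were 84.7%, 59.3% and 62.7% in TLR4-D299G, TLR4-WT and TLR4-T399I. SETDB2, of a family of histone lysine methyltransferases, had 8.54, 8.72 and 8.70 in untransfected cells, 8.05, 8.22 and 7.88 in TLR4-WT, 6.98, 7.21 and 7.14 in TLR4-D299G, and 7.46, 7.88 and 7.67 in TLR4-T399I. Untransfected cells were above and TLR4-D299G below all other arrays, 2.91-fold apart, and TLR4-WT replicate 3 lay at the highest TLR4-T399I value. INTS6, a subunit of the Integrator complex that cuts nascent RNA, had 8.75, 8.82 and 8.75, then 8.14, 8.18 and 8.11, then 7.60, 7.57 and 7.54, then 7.92, 8.21 and 8.13 in the same order of groups. INTS6 in TLR4-D299G was 2.3-fold below untransfected cells and below every other array.

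TSC22D1, a leucine zipper protein induced by TGF-beta, had 8.77, 8.75 and 8.74 in untransfected cells, 8.27, 8.36 and 8.23 in TLR4-WT, 7.49, 7.37 and 7.46 in TLR4-D299G, and 8.17, 8.35 and 8.30 in TLR4-T399I. The 2 other lines overlapped, and TLR4-D299G was 2.49-fold below untransfected cells. MED4 of Mediator, GTF2F2 of the initiation factor TFIIF, ZC3H13 of the m6A writer complex and RNASEH2B of RNase H2 were 0.68, 0.64, 0.68 and 0.46 lower in TLR4-D299G. All 4 were called lower there than in each other group, and of them only ZC3H13 was called lower than untransfected cells in TLR4-T399I and none in TLR4-WT. FOXO1, a target of insulin signalling, had 9.08, 9.14 and 9.39 in untransfected cells, with means of 9.20, 9.17, 9.08 and 9.05 over the groups and no call in any comparison. Of the brighter genes, ST13P4, DLEU7 and HNRNPA1L2 likewise had no call. ST13P4 and HNRNPA1L2 have close copies elsewhere in the genome, so their probe sets may also read those.

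Genes of vesicle traffic, protein modification and transport were called lower in TLR4-D299G in 12 of 12 brighter cases, in 8 in TLR4-WT and in 10 in TLR4-T399I, beside 30.6%, 27.4% and 26.5% of all genes that bright. Over the brighter genes of the stretch the shares were 84.7%, 59.3% and 62.7%. COG6, of the Golgi tethering complex, had 11.05, 11.10 and 11.02 in untransfected cells, 10.18, 10.13 and 10.20 in TLR4-WT, 9.86, 9.87 and 9.86 in TLR4-D299G, and 10.10, 10.35 and 10.22 in TLR4-T399I. Its partner COG3 had means of 9.11, 8.93, 8.48 and 8.84. Both subunits were lowest in every TLR4-D299G array, COG6 by 2.29-fold and COG3 by 1.54-fold against untransfected cells. VPS36, of the ESCRT-II sorting complex, was 2.02-fold lower in TLR4-D299G and 1.49-fold and 1.5-fold lower in TLR4-WT and TLR4-T399I. KBTBD6 and KBTBD7, closely related adaptors of a CUL3 ubiquitin ligase, were 0.52 and 0.89 lower in TLR4-D299G, and whether their probe sets separate them was not tested.

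Genes of mitochondria and metabolism were called lower in TLR4-D299G in 11 of 11 brighter cases, beside 30.6% of all genes that bright. In TLR4-WT and TLR4-T399I 8 of 11 were called lower in each, beside 27.4% and 26.5%. Over the brighter genes of the stretch the shares were 84.7% in TLR4-D299G, 59.3% in TLR4-WT and 62.7% in TLR4-T399I. DNAJC15, a co-chaperone of the mitochondrial import motor, had 9.67, 9.85 and 9.99 in untransfected cells, 8.66, 8.75 and 8.71 in TLR4-WT, 9.05, 9.03 and 9.08 in TLR4-D299G, and 8.67, 8.85 and 9.01 in TLR4-T399I. SLC25A30, a mitochondrial carrier, had 8.13, 8.48 and 8.26, then 7.09, 7.16 and 7.12, then 7.88, 8.00 and 7.59, then 7.55, 7.96 and 7.79. These 2 genes were lowest in TLR4-WT, 2.19-fold and 2.24-fold below untransfected cells, unlike most of the stretch. SLC25A15, the ornithine carrier, and ATP7B, the copper pump mutated in Wilson disease, followed the common order, 0.71 and 0.94 lower in TLR4-D299G, and SUCLA2, of succinyl-CoA ligase, was 0.44 lower there.

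NHLRC3 and FNDC3A were among the brighter genes with the widest spread. NHLRC3, an NHL repeat protein of little known function, had 10.84, 10.91 and 10.79 in untransfected cells, 9.91, 9.69 and 9.66 in TLR4-WT, 9.22, 9.19 and 9.22 in TLR4-D299G, and 9.65, 9.69 and 9.72 in TLR4-T399I. FNDC3A, a membrane protein with fibronectin type III domains, had 10.19, 10.18 and 10.14, then 9.60, 9.63 and 9.51, then 8.88, 8.83 and 8.83, then 9.42, 9.51 and 9.51. In both genes no array of untransfected cells or of TLR4-D299G fell within the range of another group, and these groups were 3.11-fold and 2.5-fold apart. TLR4-WT and TLR4-T399I overlapped in NHLRC3 and met at 9.51 in FNDC3A.

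**Figure D1:**
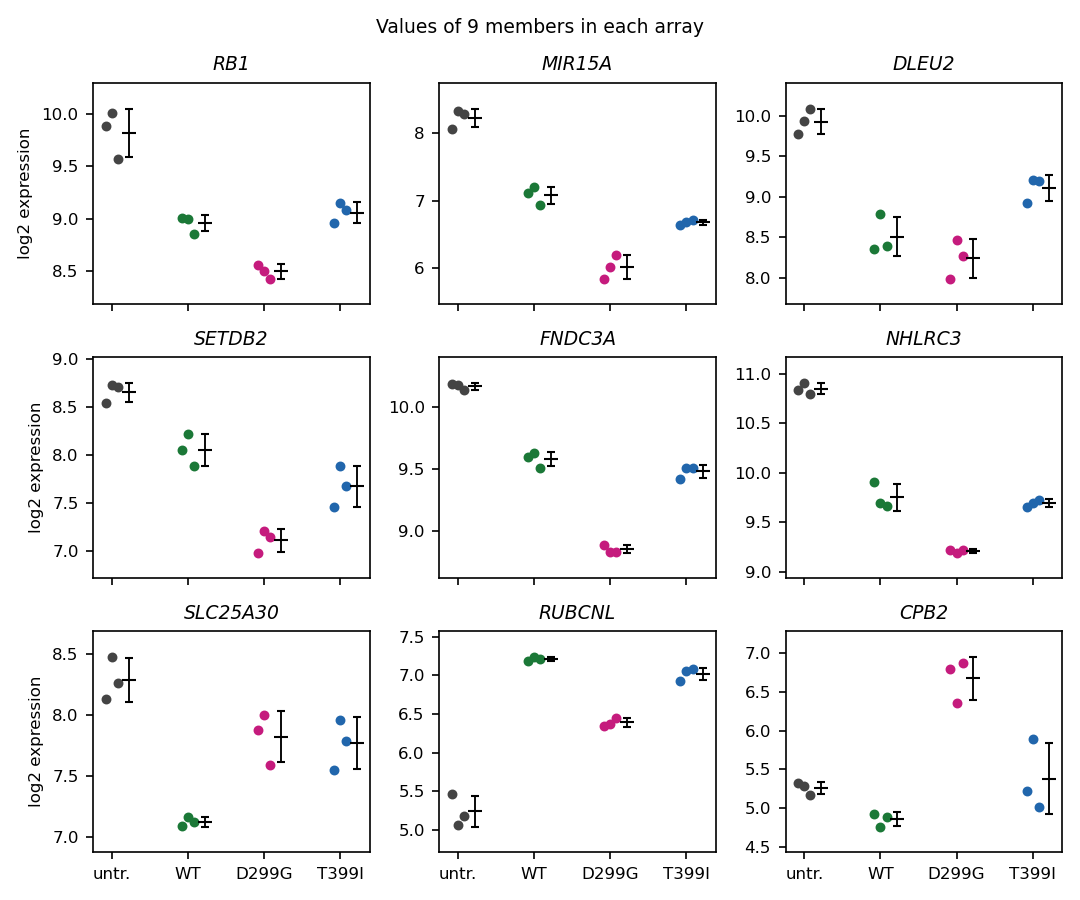
Log2 expression (vertical axes, each cut to its gene) of 9 genes of the stretch in the 12 arrays, by group (horizontal axis). Points are single arrays, and the cross bars give the mean and SD of 3 arrays. RB1, MIR15A, SETDB2, FNDC3A and NHLRC3 are lowest in TLR4-D299G, SLC25A30 is lowest in TLR4-WT, and RUBCNL and CPB2, chosen after their values were seen, are high in the lines or in TLR4-D299G.

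Receptors, adhesion and secreted proteins were mostly dim, 14 of 16. MLNR, the motilin receptor, was the brighter gene of the stretch furthest above untransfected cells in TLR4-D299G, with 7.13, 7.16 and 7.65 in untransfected cells and 7.90, 7.88 and 8.06 in TLR4-D299G, or 1.55-fold higher. TLR4-WT and TLR4-T399I ran from 7.64 to 7.88 and from 7.50 to 7.86, and both overlapped untransfected cells. The protocadherins PCDH8, PCDH17 and PCDH20 and the stem cell marker OLFM4 had no call, with group means from 4.88 to 6.70.

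Some genes ran against the common order and are named after their values were seen. RUBCNL, an autophagy protein, had 5.46, 5.07 and 5.18 in untransfected cells, near the lower quartile, 7.18, 7.23 and 7.21 in TLR4-WT, 6.34, 6.37 and 6.45 in TLR4-D299G, and 6.93, 7.05 and 7.08 in TLR4-T399I. CPB2, a carboxypeptidase of plasma, had means of 5.26, 4.86 and 5.38 in untransfected cells, TLR4-WT and TLR4-T399I and 6.79, 6.35 and 6.87 in the TLR4-D299G arrays. LPAR6, a lysophosphatidic acid receptor whose gene lies inside an intron of RB1, had means of 4.10, 4.36 and 4.30, below the lower quartile in each, and 5.25, 5.46 and 5.31 in TLR4-D299G. RUBCNL was above untransfected cells in all 3 lines, in the order TLR4-WT, TLR4-T399I, TLR4-D299G. CPB2 and LPAR6 were the 2 genes called higher in TLR4-D299G than in each other group, beside 2.98% of all genes and 3.51% of the brighter ones, and LPAR6 was also called higher in TLR4-WT than in untransfected cells, by 0.25. LCP1, an actin-bundling protein, had means of 10.94, 10.65, 10.91 and 10.96. With SLC25A30, it was called lower in TLR4-WT than in each other group. That pattern held in 2.79% of all genes and 4.1% of those with a mean of at least 7.0, so these 2 genes are near the background. No gene of the stretch was called higher in TLR4-WT than in each other group, beside 1.32% of all genes and 2.04% of those with a mean of at least 7.0.

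Of the dim genes, 6 were called lower and 6 higher in TLR4-D299G than in untransfected cells, beside 6.41% and 18.7% of all genes with a mean below 7.0. CCDC122 and LACC1, the latter linked to Crohn's disease, were 1.09 and 1.13 lower there and also lower in the other lines. LHFPL6 was called higher in all 3 lines, by 0.45, 0.46 and 0.35. In 16 of the 40 dim genes the mean of every group was under the arrays' lower quartile, so a shift would be hard to see in them.

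**Figure D2:**
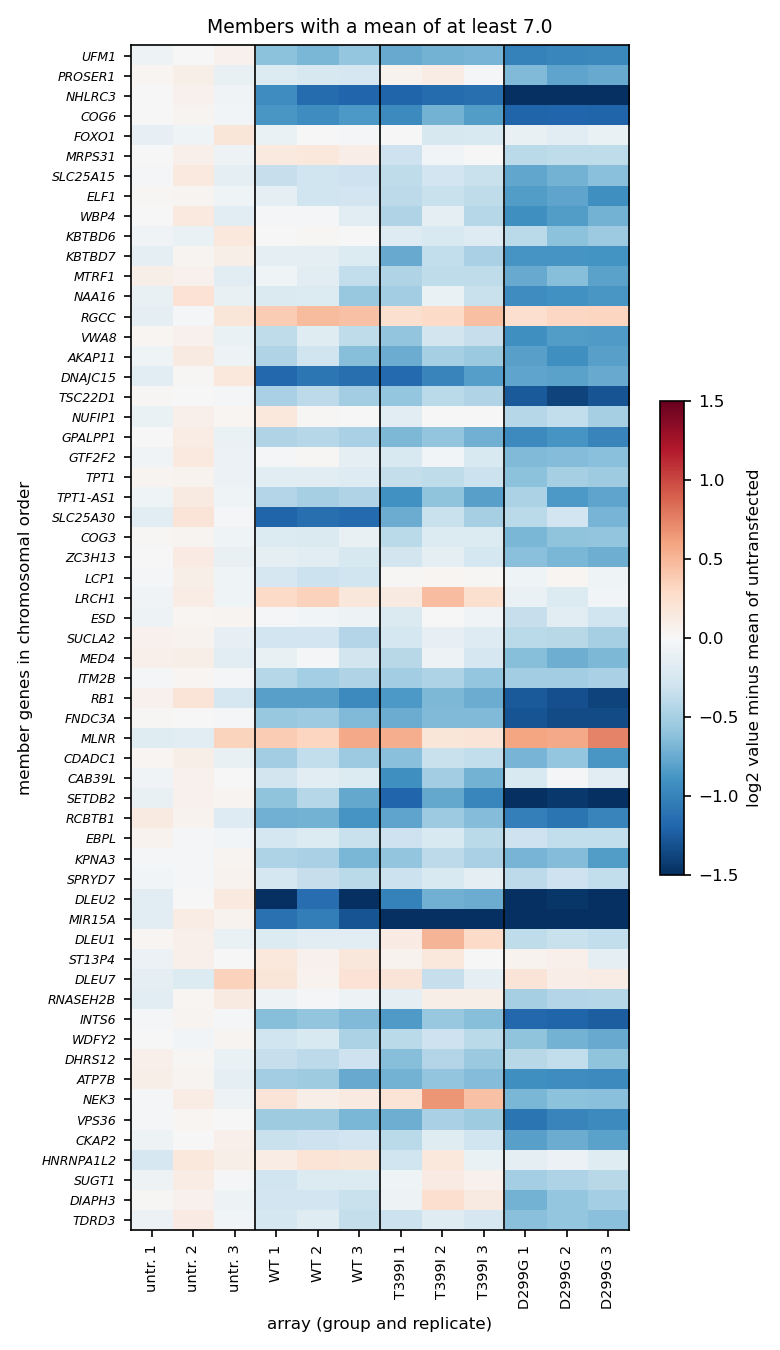
Log2 value minus the untransfected mean (colour, limited to -1.5 and 1.5) of the 59 brighter genes of the stretch, in order of gene start from UFM1 at the top to TDRD3, in each of the 12 arrays (columns, by group). Most rows are blue in the 3 lines and deepest in TLR4-D299G, while RGCC and MLNR are mostly red, DNAJC15 and SLC25A30 are deepest in TLR4-WT, and FOXO1, ST13P4 and HNRNPA1L2 are pale.

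Taking the calls group by group, 34 genes were called lower in each of the 3 lines than in untransfected cells, where 10.8% of all genes measured were. Of these 34, 30 were brighter genes, next to 15.9% of all genes that bright. In TLR4-D299G 33 were called lower than in each other group, beside 4.75% of all genes, and 32 of them were brighter genes, beside 7.6%. Both patterns held in 18 genes, among them UFM1, COG6, RB1, FNDC3A, SETDB2, MIR15A, INTS6, VPS36 and TDRD3. Every TLR4-D299G array lay below all 9 other arrays in 38 of the 59 brighter genes. For these 38 genes and for the 18 with both patterns, the share over all genes was not counted. Called higher in each line were RGCC, LHFPL6 and RUBCNL, beside 9.31% of all genes. In 29 genes, 25 of them dim, no pairwise comparison was called. The share of all genes with no such call was not counted either.

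Some probe sets of the stretch were not used by the rule. TPT1, a growth-related protein, was 0.55 lower in TLR4-D299G by its brighter probe set and 1.03 lower by its second, and TPT1-AS1, its antisense partner, was 0.71 and 1.06 lower. A further 10 probe sets inside the stretch carry several symbols, 3 of them with a mean of at least 7.0, and 4 of the 10 were called lower and 0 higher in TLR4-D299G against untransfected cells, beside 20.8% of all genes called lower. In TLR4-T399I 4 were called lower and in TLR4-WT 2, beside 18.5% and 19.0%, and 0 were called higher in either.

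Pairs of genes that start head to head share the bases between their starts, and are shown because they let neighbours at 1 start region be set side by side. Among genes of the stretch, 3 such pairs began within 250 bases of each other. The bases between their starts are given on the plus strand (RefSeq, GRCh38.p14), with a GC box (GGGCGG, searched on both strands) in capitals:
PROSER1-NHLRC3: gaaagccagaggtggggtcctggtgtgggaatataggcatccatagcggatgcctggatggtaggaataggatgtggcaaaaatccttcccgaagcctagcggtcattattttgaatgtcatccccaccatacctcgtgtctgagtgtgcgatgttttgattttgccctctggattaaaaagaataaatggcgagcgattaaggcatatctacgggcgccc
NUFIP1-GPALPP1: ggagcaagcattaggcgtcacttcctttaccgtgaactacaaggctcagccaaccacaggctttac
TPT1-TPT1-AS1: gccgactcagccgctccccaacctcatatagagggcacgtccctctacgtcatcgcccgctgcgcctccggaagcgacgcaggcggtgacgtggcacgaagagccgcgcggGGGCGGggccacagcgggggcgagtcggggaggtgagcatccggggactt

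These windows are chr13:39038090-39038310 (221 bases, 48.9% G and C), chr13:44989472-44989537 (66 bases, 51.5%) and chr13:45341184-45341344 (161 bases, 71.4%). A GC box was in the TPT1 window only, and windows of those 3 lengths before the start of all genes in the table held it in 56.1%, 35.5% and 52.1%. The CCAAT box (CCAAT) and the TATA box (TATAAA), searched likewise, were in none, next to 32.2%, 12.8% and 27.2% and to 7.58%, 4.45% and 6.01% of all genes. A match is no more than these letters in this window.

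In TLR4-D299G PROSER1, a proline- and serine-rich protein, was 0.74 and NHLRC3 1.64 lower than untransfected cells, and in TLR4-T399I PROSER1 was 0.05 higher and NHLRC3 1.16 lower. NUFIP1, an RNA-binding protein, was 0.44 and GPALPP1 0.94 lower in TLR4-D299G. In TLR4-WT NUFIP1 was 0.06 higher, with no call, and GPALPP1 0.46 lower.

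Over all genes of the stretch with a RefSeq promoter in the table (82 of 99), the 250 bases before the start had a median of 64.0% G and C and 21 CpG in the 53 brighter genes and 54.8% and 9 in the 29 dim ones. A GC box was in 64.2% of the brighter ones, next to 68.6% of all genes that bright, and in 24.1% of the dim ones, next to 38.9% of all genes with a mean below 7.0.

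Many genes of the stretch encode 1 or 2 subunits of a complex, or a regulator, whose partners lie elsewhere, and these partners were tested, from lists made from textbook knowledge. Of 106 listed partners 101 were measured, and 2 of them, TFDP1 and IRS2, lie on chromosome 13 outside the stretch. Against untransfected cells, 20 fell and 31 rose in TLR4-WT, 30 fell and 28 rose in TLR4-D299G, and 15 fell and 39 rose in TLR4-T399I. Of all genes 19.0%, 20.8% and 18.5% fell and 19.3%, 22.5% and 18.1% rose in these comparisons. Of genes with a mean of at least 7.0, 27.4%, 30.6% and 26.5% fell. Of the same genes, 23.2% rose in TLR4-WT, 2757 of 11006 in TLR4-D299G and 22.8% in TLR4-T399I. Several of the counts are thus near the background. The 20 that fell in TLR4-WT were near the share of all genes. The 30 that fell in TLR4-D299G were near the share of genes with a mean of at least 7.0. The 15 that fell in TLR4-T399I were below both shares. Partners with a mean below 7.0 were not counted apart. The 28 that rose in TLR4-D299G were 18 with each array centred on its median. The medians of the 101 partners were 0.07, 0.01 and 0.14 in TLR4-WT, TLR4-D299G and TLR4-T399I, beside 0.06, 0.07 and 0.05 over all genes. The one in TLR4-T399I, where 39 rose, was thus above that of all genes. In TLR4-D299G against TLR4-T399I 31 fell and 3 rose, where 10.7% of all genes fell and 8.43% rose. Of genes with a mean of at least 7.0, 16.1% fell and 11.2% rose there. Against TLR4-WT 26 fell and 10 rose, where 11.7% of all genes fell and 11.3% rose. Of the 11006 genes with a mean of at least 7.0, 18.2% fell and 1649 rose against TLR4-WT. With arrays centred, the 3 that rose against TLR4-T399I were 1, and 1 to 3 when single arrays were left out.

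UFM1 conjugation had 5 measured partners, of which 0 fell and 1 rose in TLR4-D299G against untransfected cells. DDRGK1, which anchors the UFM1 ligase at the endoplasmic reticulum, had 9.28, 9.17 and 9.22 in untransfected cells and rose 1.63-fold in TLR4-WT (limma, adjusted p = 2.05e-05), 1.56-fold in TLR4-D299G (3.41e-05) and 1.46-fold in TLR4-T399I (0.000117), with no overlap. Of 5 measured COG subunits outside the stretch, COG5 alone fell in TLR4-D299G, by 1.73-fold (limma, adjusted p = 6.66e-06), and 1 rose. COG5 also fell 1.24-fold in TLR4-WT (limma, adjusted p = 0.00435) and differed by 0.01 in TLR4-T399I (0.902). VPS25, a partner of VPS36 in ESCRT-II, rose 1.39-fold in TLR4-D299G (limma, adjusted p = 0.000283) while VPS36 was 2.02-fold lower, and the other subunit did not pass the test.

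Both partners of SUCLA2 fell in all 3 lines. SUCLG1, the shared alpha subunit of succinyl-CoA ligase, fell 1.19-fold, 1.32-fold and 1.46-fold in TLR4-WT, TLR4-D299G and TLR4-T399I (limma, adjusted p = 0.0325, 0.00262 and 0.000376). SUCLG2, the GTP-specific beta subunit, fell 1.21-fold, 1.36-fold and 1.41-fold (limma, adjusted p = 0.0103, 0.000583 and 0.000299). SUCLA2, the ATP-specific beta subunit, was 1.26-fold, 1.35-fold and 1.14-fold lower, the last with no call. RNASEH2A, the catalytic subunit of RNase H2, rose 1.19-fold in TLR4-D299G (limma, adjusted p = 0.0108), a call lost with each array centred on its median, and RNASEH2C differed by 0.06 (0.477).

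Of 13 Integrator subunits outside the stretch, 5 fell and 4 rose in TLR4-D299G against untransfected cells, where 20.8% of all genes fell and 22.5% rose, and 30.6% of those with a mean of at least 7.0 fell. These shares apply to each count of subunits and targets in TLR4-D299G against untransfected cells. INTS14, on chromosome 15, fell by 1.47-fold (limma, adjusted p = 0.000164). The 340 chromosome 15 genes with a mean of at least 7.0 had a median log2 difference of -0.51 there, so a fall was not particular to INTS14. Partners on chromosome 15 were not counted apart. Of 18 Mediator subunits, 3 fell and 7 rose, and MED27 rose 1.49-fold, 1.53-fold and 1.82-fold in TLR4-WT, TLR4-D299G and TLR4-T399I (limma, adjusted p = 0.000345, 0.000196 and 2.06e-05). GTF2F1, the other subunit of TFIIF, rose 1.16-fold in TLR4-D299G (limma, adjusted p = 0.0401), a call that was lost under 10 of the alternatives, among them centring, the pair of groups fitted alone and single arrays left out. Of 6 m6A writer subunits, 3 fell and 1 rose, and CBLL1 fell 1.58-fold (limma, adjusted p = 0.000196).

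Of 14 RB family members, cyclins, kinases and E2F partners, 4 fell and 3 rose in TLR4-D299G against untransfected cells. CCND2, a cyclin that acts on RB1, had 7.77, 7.77 and 7.72 in untransfected cells, 8.32, 8.54 and 8.35 in TLR4-WT, 8.81, 8.67 and 8.69 in TLR4-D299G, and 9.65, 9.72 and 9.76 in TLR4-T399I. It rose 1.57-fold, 1.96-fold and 3.88-fold (limma, adjusted p = 7.19e-05, 3.76e-06 and 3.61e-08), and no 2 groups overlapped. Of 19 measured E2F target genes, 9 rose and 2 fell in TLR4-WT, and 5 rose and 7 fell in TLR4-D299G. In TLR4-T399I 13 rose and 0 fell. Of all genes 19.3%, 22.5% and 18.1% rose and 19.0%, 20.8% and 18.5% fell in these comparisons. Of genes with a mean of at least 7.0, 27.4%, 30.6% and 26.5% fell. Of the same genes, 23.2% rose in TLR4-WT, 2757 of 11006 in TLR4-D299G and 22.8% in TLR4-T399I. In TLR4-D299G against TLR4-T399I 13 of the 19 fell and 0 rose, with a median of -0.31, beside 16.1% of all genes with a mean of at least 7.0 called lower. Against TLR4-WT 10 fell and 0 rose, with a median of -0.19, beside 18.2%. MCM7, of the replicative helicase, rose 1.59-fold, 1.28-fold and 1.65-fold (limma, adjusted p = 1.76e-05, 0.00116 and 9.85e-06).

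FOXO1 itself had no call, and of 14 FOXO target genes 5 fell and 3 rose in TLR4-D299G. SESN3, a sestrin, had 10.84, 10.90 and 10.83 in untransfected cells, 8.73, 8.74 and 8.63 in TLR4-WT, 9.65, 9.73 and 9.69 in TLR4-D299G, and 8.93, 9.08 and 9.02 in TLR4-T399I. It fell 4.46-fold, 2.24-fold and 3.6-fold (limma, adjusted p = 1.68e-08, 3.78e-07 and 2e-08), and no 2 groups overlapped.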

How the data were processed

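The deposited values are log2 expression values of 33297 probe sets on 12 arrays, made by the authors with Affymetrix Expression Console 1.0 and RMA, per the submitters' processing notes. RMA corrects background, makes the arrays' distributions alike by quantiles and summarises probes, so a shift of all genes together would be removed. No filter was applied to the deposited values. Array medians ran from 6.88 to 6.97, and the number of arrays limits the precision.

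In GEO's platform annotation 19460 probe sets carried 1 symbol, 1754 more than 1 and 12083 no symbol. The probe set with the highest mean stood for a gene, which gave 18417 genes, of which 18388 were placed by RefSeq gene starts (GRCh38), used for order only because the array's build is not given in the sources used here. A group-means model was fitted to all 12 arrays with limma 3.58.1 in R 4.3.3, with two-sided tests, Benjamini-Hochberg adjustment across every probe set and calls at an adjusted p under 0.05. A fold is 2 to the power of the difference of 2 group means. The script was tested on simulated data.

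The members, roles, partners and lists were chosen with earlier results of these data known. Named genes are the 12 brighter ones with the widest spread of group means, 4 furthest against the shift, those with listed partners, those at and beside the ends and the threshold of 7.0, and 1 partner per pathway with the largest called difference. Other genes given as examples were picked after their values were seen. Alternatives were array centring, a fit of the compared pair alone, a trend and robust prior, averaged probe sets, brighter genes only, EPSTI1 kept in, 5 genes left out at each end, a replicate block and leaving out each array.

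Samples with the same replicate number were checked for shared deviations from their group means: over 18 pairs of samples the correlation ran from -0.079 to 0.274 and exceeded 0.1 in 5, so the numbers were not taken to pair the samples.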

Additional observations from a re-analysis of the deposited data

How the results depend on the processing

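No regional median and no called difference of a named gene reversed its direction under any alternative run. Sign changes of uncalled differences were not counted. Of 4216 alternative values over 46 named genes, 4188 stayed the same, 17 moved and 11 became weaker. For partners, the same means an unchanged call. For the other named genes it means a difference that changed by less than the SD within the compared groups. Centring each array on its median moved the median difference of the 99 genes to -0.22 for TLR4-WT, -0.48 for TLR4-D299G and -0.30 for the mean of the 3 lines against untransfected cells, to -0.21 for TLR4-D299G minus TLR4-T399I and to -0.01 for TLR4-T399I minus TLR4-WT. Keeping only genes with a mean of at least 7.0 gave -0.30, -0.68, -0.34 and -0.45 for the 3 lines and their mean against untransfected cells, and -0.38 and -0.35 for TLR4-D299G minus TLR4-WT and minus TLR4-T399I. Leaving out the first 5 and last 5 genes gave -0.13 for TLR4-D299G minus TLR4-T399I.

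The 3 genes called lower in TLR4-T399I than in TLR4-WT became 1 with centring and 7 with a trend and robust prior. They became 9 when only probe sets with a mean of at least 7.0 were fitted and adjusted. In the fit of all probe sets 3 of the 59 brighter genes were called. With centring, partners called higher in TLR4-D299G than in untransfected cells went from 28 to 18, those called lower in TLR4-T399I than in TLR4-WT from 9 to 3, also 3 with the pair fitted alone, and those called higher in TLR4-D299G than in TLR4-T399I from 3 to 1. The mean of the 3 lines has no fit of a pair alone.

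Leaving out each array in turn, the medians of the 99 genes against untransfected cells ran from -0.21 to -0.14 in TLR4-WT, -0.47 to -0.40 in TLR4-D299G, -0.20 to -0.14 in TLR4-T399I and -0.28 to -0.24 in their mean. They ran from -0.22 to -0.15 for TLR4-D299G minus TLR4-T399I and from -0.07 to -0.03 for TLR4-T399I minus TLR4-WT. Genes called lower in TLR4-T399I than in TLR4-WT numbered 1 to 3, partners called lower there 4 to 9, and partners called higher in TLR4-D299G than in TLR4-T399I 1 to 3.

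With the replicate block, 42, 56 and 42 genes were called lower in TLR4-WT, TLR4-D299G and TLR4-T399I than in untransfected cells, against 40, 56 and 44 without it. In the labels the samples share only a number. Of 12 samples 1 correlated best with its own number in every other group. Taking each sample with 1 other group at a time, 18 of 36 did. Whether the samples are paired is not settled by this.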

Other observations

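EPSTI1, which lies inside the stretch by position and was left out by the rule, had log2 values of 7.90, 7.93 and 7.83 in untransfected cells, 6.16, 6.36 and 6.14 in TLR4-WT, 6.26, 6.41 and 6.33 in TLR4-D299G, and 5.96, 6.32 and 6.45 in TLR4-T399I. The 3 lines overlapped, 3.17-fold, 2.93-fold and 3.12-fold below untransfected cells, without the lower level in TLR4-D299G that most brighter neighbours had. Of the 8 epithelial markers, KRT8, KRT18 and KRT19 were called higher and CDH1 lower in all 3 lines, VIL1 was called lower in TLR4-WT and TLR4-D299G, and KRT20 was called lower in TLR4-D299G and higher in TLR4-T399I. CDX2, which lies on chromosome 13 before UFM1, was called lower in TLR4-D299G by 0.85 and in TLR4-T399I by 0.18, and EPCAM had no call. The part of these markers in the values of the stretch was not tested.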
